A study of Sus scrofa with 12 samples.

Results

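Back fat of Guangdong small-eared pigs (GS) was compared with that of Yorkshire pigs (YK) at 80 d of age, across every gene with enough counts to test. The comparison holds 6 of the 12 libraries of the study, 3 from GS_80d and 3 from YK_80d, and the other 6 come from the same breeds at 9 d. All pigs are labelled wild type, and the tissue was the subcutaneous fat over the middle of the back. The study set the breeds side by side at both ages. GS is an indigenous fat-type breed of southern China, and YK is a lean commercial breed. Adipocyte is the cell type named in the labels, but RNA came from whole tissue. The labels do not say whether the samples came from separate animals or litters, so the p-values cover no more than the spread among these samples, and that spread may be technical. The difference is GS minus YK throughout, on a log2 scale, so a positive value means more transcript in GS.

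Subcutaneous fat stores triacylglycerol in adipocytes and also holds vessels, nerves, fibroblast-like progenitors and immune cells. A differentiated adipocyte burns branched-chain amino acids and pyruvate in its mitochondria, and the acetyl units leave as citrate and become fatty acids. Its storage is set by hormones and by cyclic AMP, while the matrix and the vessels around it change as the cell enlarges. In bulk tissue, fewer cells of a type and less RNA per cell cannot be told apart.

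The deposited totals at 80 d were 52112636, 57414554 and 58836088 units in GS_80d and 45435480, 53992441 and 53348153 units in YK_80d, about 3.72 units for each sequenced fragment. The GS_80d libraries were closer to each other, with Spearman coefficients across genes of 0.976 to 0.980, than the YK_80d libraries, with 0.926 to 0.955. All 10 adipocyte markers checked, among them ADIPOQ, PLIN1 and FABP4, were above 1 CPM (counts scaled to a common library size, with TMM factors) in all 6 libraries. Their summed level was 22995 to 25614 CPM in GS_80d and 13866 to 19118 CPM in YK_80d. Transcripts of other tissues were uneven within YK_80d. The 26 tested skeletal muscle genes summed to 23.4 to 39.9 CPM in GS_80d, against 60.1, 32.6 and 18072 CPM in YK_80d replicates 1, 2 and 3. T and NK cell genes summed to 175, 207 and 213 CPM in GS_80d, against 287, 729 and 1157 CPM in YK_80d. Genes of simple and gland epithelium summed to 76.3 to 89.1 CPM in GS_80d, against 691, 172 and 333 CPM in YK_80d. CLDN4 alone held 527, 43.0 and 257 CPM of the YK sums, and the other 24 epithelial genes summed to 74.9 to 88.2 CPM in GS_80d, against 164, 129 and 76.3 CPM in YK_80d. So YK_80d replicate 3 stood apart for muscle and replicates 2 and 3 for lymphocytes.

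**Figure D1:**
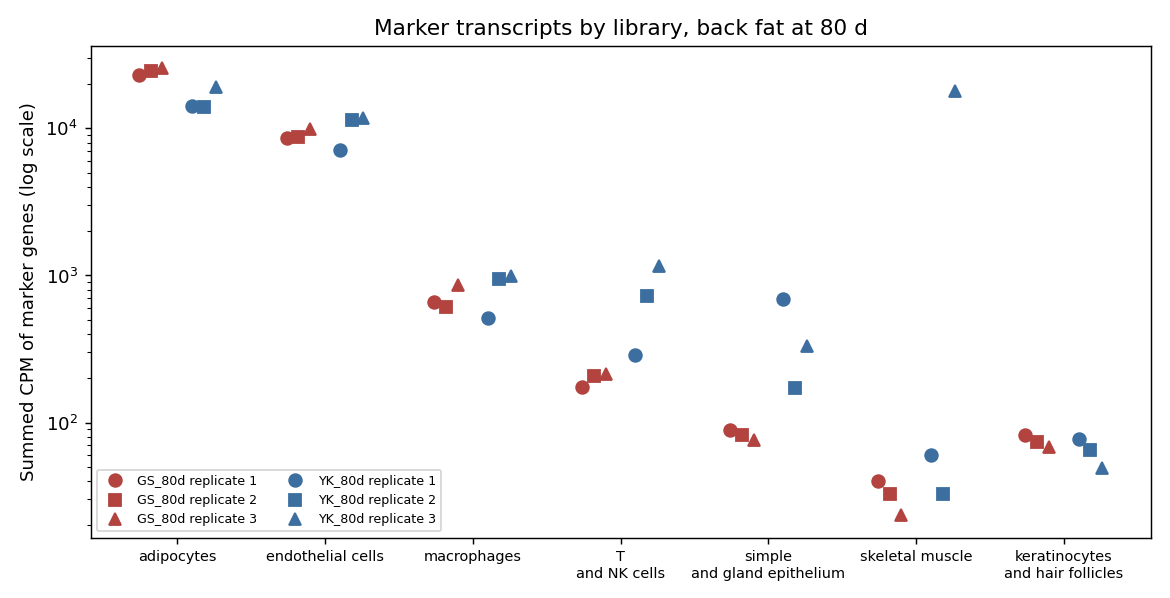
Summed CPM of marker genes of 7 tissues or cell types in each library at 80 d, on a log scale, with GS_80d left of YK_80d and 1 symbol per replicate number. Skeletal muscle transcripts summed to 18072 CPM in YK_80d replicate 3 and to at most 60.1 CPM in the other 5 libraries, and the adipocyte markers were at 13866 CPM or more in every library.

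Of 15425 genes tested, 944 (6.12%) passed an adjusted p of 0.05 in edgeR's quasi-likelihood test with Benjamini-Hochberg adjustment. Of these, 489 (3.17% of the genes tested) were higher and 455 (2.95%) were lower in GS_80d, while the median difference of all genes was -0.02. The differences that passed had a median size of 1.41 on the log2 scale, and none was under 0.56. These sizes are set in part by the test, since small differences seldom pass with 3 libraries a group. In simulated data, differences were planted in well-counted genes, and each gene had the same spread in every group. There 12.2% of planted 2-fold and 70% of planted 4-fold differences at 80 d passed. Rates for genes with fewer counts, or with a wider spread in YK_80d than in GS_80d, were not tested. A 4-fold difference or more was found for 135 of the higher and 112 of the lower genes. Without overlap between the breeds were 928 of the 944 genes, against 31.4% of all genes tested. Many calls were lost when 1 library was left out. The count was 255, 359 and 339 without GS_80d replicates 1, 2 and 3, and 785, 916 and 335 without YK_80d replicates 1, 2 and 3. Without both YK_80d libraries rich in T cell transcripts it was 242, in a fit that keeps 1 YK_80d library and assumes that it varies like the other groups. In all, 206 genes, 146 higher and 60 lower, kept their call whichever single library was left out. A gene named below kept its call in all 6 of these fits unless its loss is given. The gene lists below were chosen with earlier results of these data known. Of their 2507 tested genes 266 (10.6%) passed in either direction, against 6.12% of all genes, so list counts near these shares do not set a list apart.

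Part of the enzymes that break down branched-chain amino acids were higher in GS. Of 19 tested genes of this route 8 were higher and 0 lower, with a median difference of 0.87. MCCC2, a subunit of the carboxylase that acts in leucine breakdown, stood at 215, 174 and 228 CPM in GS_80d, against 49.5, 35.2 and 31.5 CPM in YK_80d (difference 2.41 ± 0.28, SE, adjusted p = 0.00109). All 3 GS libraries lay far above all 3 YK libraries. DBT, the core of the complex that commits branched-chain keto acids to oxidation, stood at 69.7, 57.1 and 64.2 CPM in GS_80d, against 19.1, 23.4 and 19.1 CPM in YK_80d (1.63 ± 0.24, adjusted p = 0.00377). IVD, which oxidises the leucine intermediate isovaleryl-CoA, stood at 195, 158 and 203 CPM in GS_80d, against 49.0, 80.0 and 67.4 CPM in YK_80d (1.50 ± 0.27, adjusted p = 0.00868). The groups were again well apart, with the spread of each breed much smaller than the gap. MMUT, which turns methylmalonyl-CoA from valine and isoleucine into succinyl-CoA, was higher by 1.44 ± 0.24 (adjusted p = 0.00644). HIBADH, a dehydrogenase of valine breakdown, was higher by 1.19 ± 0.23 (adjusted p = 0.0129). Upstream genes, chosen after their values were seen, did not pass: BCAT2, the mitochondrial transaminase, differed by 0.30 ± 0.20 (adjusted p = 0.376), and BCKDK, the kinase that restrains the DBT complex, by 0.03 ± 0.20 (adjusted p = 0.957). Of the 8 calls, 5 remained without GS_80d replicate 1 and 6 or 7 without any other single library, and 2 remained without YK_80d replicates 2 and 3. The adipocyte markers, at 22995 to 25614 CPM in GS_80d against 13866 to 19118 CPM in YK_80d, lay in the same order as a sum. Of the 10 markers 3 passed as higher, CIDEC, LPL and PLIN1, but none kept its call whichever single library was left out. LPL did not pass once any 1 library was omitted, CIDEC did not in 2 such fits, and PLIN1 did not in at least 1. A further 3 had negative differences that did not pass, CFD at -1.01 and FABP4 and PNPLA2 at -0.04 each. The part of the adipocyte markers in this and the other metabolic results was not tested.

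**Figure D2:**
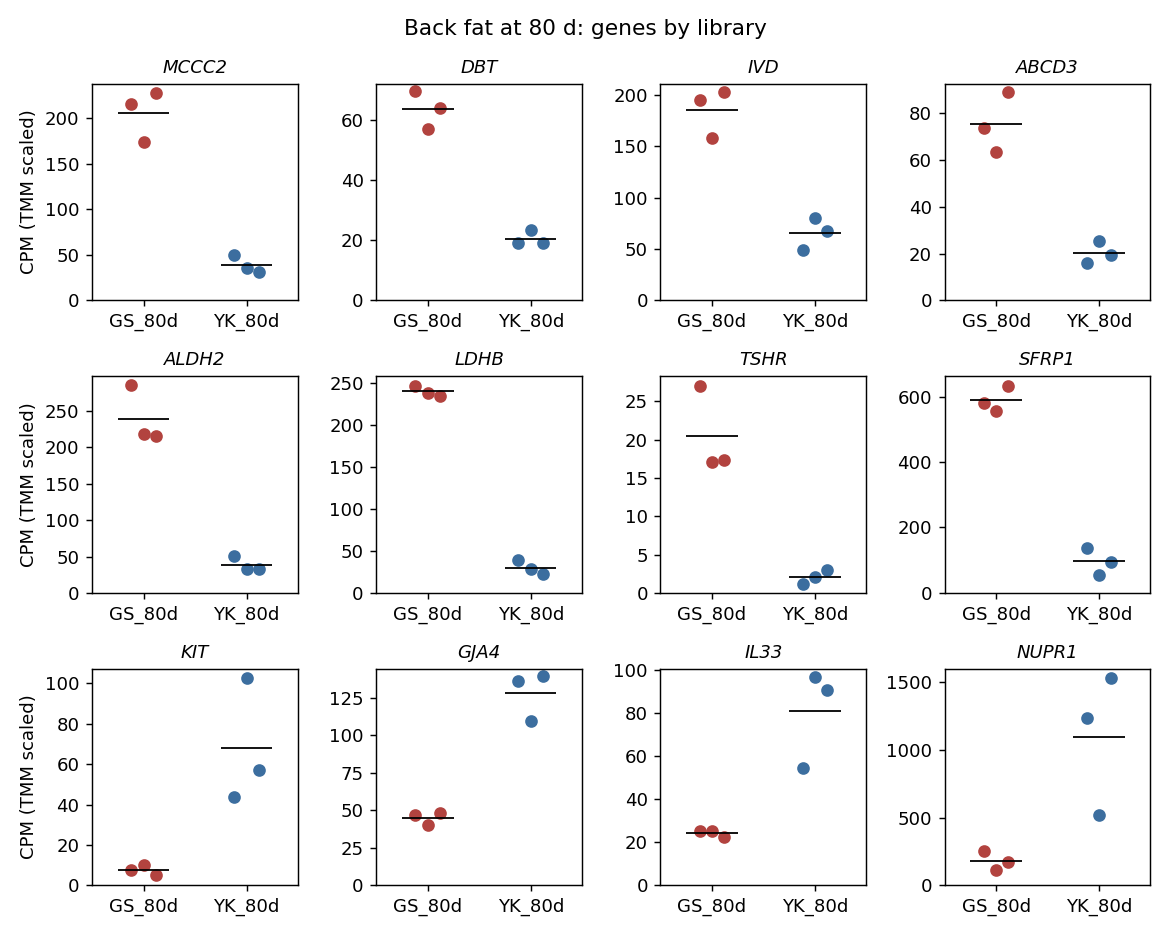
CPM of 12 genes in each library at 80 d, with GS_80d on the left of each panel and YK_80d on the right; points are libraries, bars are means of 3, and each axis starts at 0. MCCC2 lies at 174 to 228 CPM in GS_80d and 31.5 to 49.5 CPM in YK_80d, and KIT lies at 5.42 to 10.04 CPM in GS_80d and 43.6 to 102 CPM in YK_80d.

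Some peroxisomal genes were higher as well. Peroxisomes shorten very long and branched fatty acids and begin the making of ether lipids. Of 26 tested genes 5 were higher and 0 lower, with a median of 0.58. ABCD3, a transporter that brings fatty acids into the organelle, stood at 73.6, 63.1 and 88.8 CPM in GS_80d, against 16.1, 25.5 and 19.5 CPM in YK_80d (1.88 ± 0.29, adjusted p = 0.00497). ABCD2, its relative for very long chains, stood at 34.3, 79.5 and 35.9 CPM in GS_80d, against 7.58, 7.18 and 8.61 CPM in YK_80d (2.68 ± 0.45, adjusted p = 0.00686). For both transporters the lowest GS library was above the highest YK library. ACOX2, an oxidase for branched chains, was higher by 1.28 ± 0.25 (adjusted p = 0.0142) and lost its call without GS_80d replicate 1 or YK_80d replicate 3 (adjusted p up to 0.0714). HSD17B4 and PEX3, an enzyme of the shortening cycle and a factor that builds the membrane, were higher by 1.55 ± 0.37 and 1.48 ± 0.36 (adjusted p = 0.0297 and 0.0323). Both lost their calls in all 6 fits that left out 1 library (adjusted p up to 0.0968 and 0.108). Of the 5 calls, 2 remained without GS_80d replicate 1 or YK_80d replicate 3, and 3 without any other single library.

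The pyruvate dehydrogenase complex, which feeds pyruvate carbon into the mitochondrial citrate pool, was higher in GS in the 4 subunits that catalyse its steps. PDHA1 stood at 733, 453 and 609 CPM in GS_80d, against 237, 237 and 237 CPM in YK_80d (1.33 ± 0.27, adjusted p = 0.0155). The YK libraries were nearly equal and below every GS library. PDHB, DLAT and DLD, the other subunits, were higher by 1.17 ± 0.23, 1.14 ± 0.23 and 0.96 ± 0.23 (adjusted p = 0.0144, 0.0165 and 0.0296). Of the 31 tested genes of the tricarboxylic acid cycle and of pyruvate handling 4 were higher, all of them these subunits, and 1 was lower, PCK2, the mitochondrial enzyme that makes phosphoenolpyruvate (-1.36 ± 0.34, adjusted p = 0.0359), and the median was 0.37. None of the 5 genes kept its call whichever library was left out. Of the 4 higher calls, 0 remained without GS_80d replicate 1, 1 without YK_80d replicate 3 and 2 without GS_80d replicate 3, with adjusted p up to 0.0959 for DLD. PCK2 lost its call without any single library but YK_80d replicate 2 (adjusted p up to 0.13). The nuclear genes of the respiratory chain gave 0 higher and 1 lower of 40, a call that was left only without YK_80d replicate 2, and a median of -0.02, and the 13 mitochondrially encoded protein genes gave 0 calls and a median of -0.05.

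**Figure D3:**
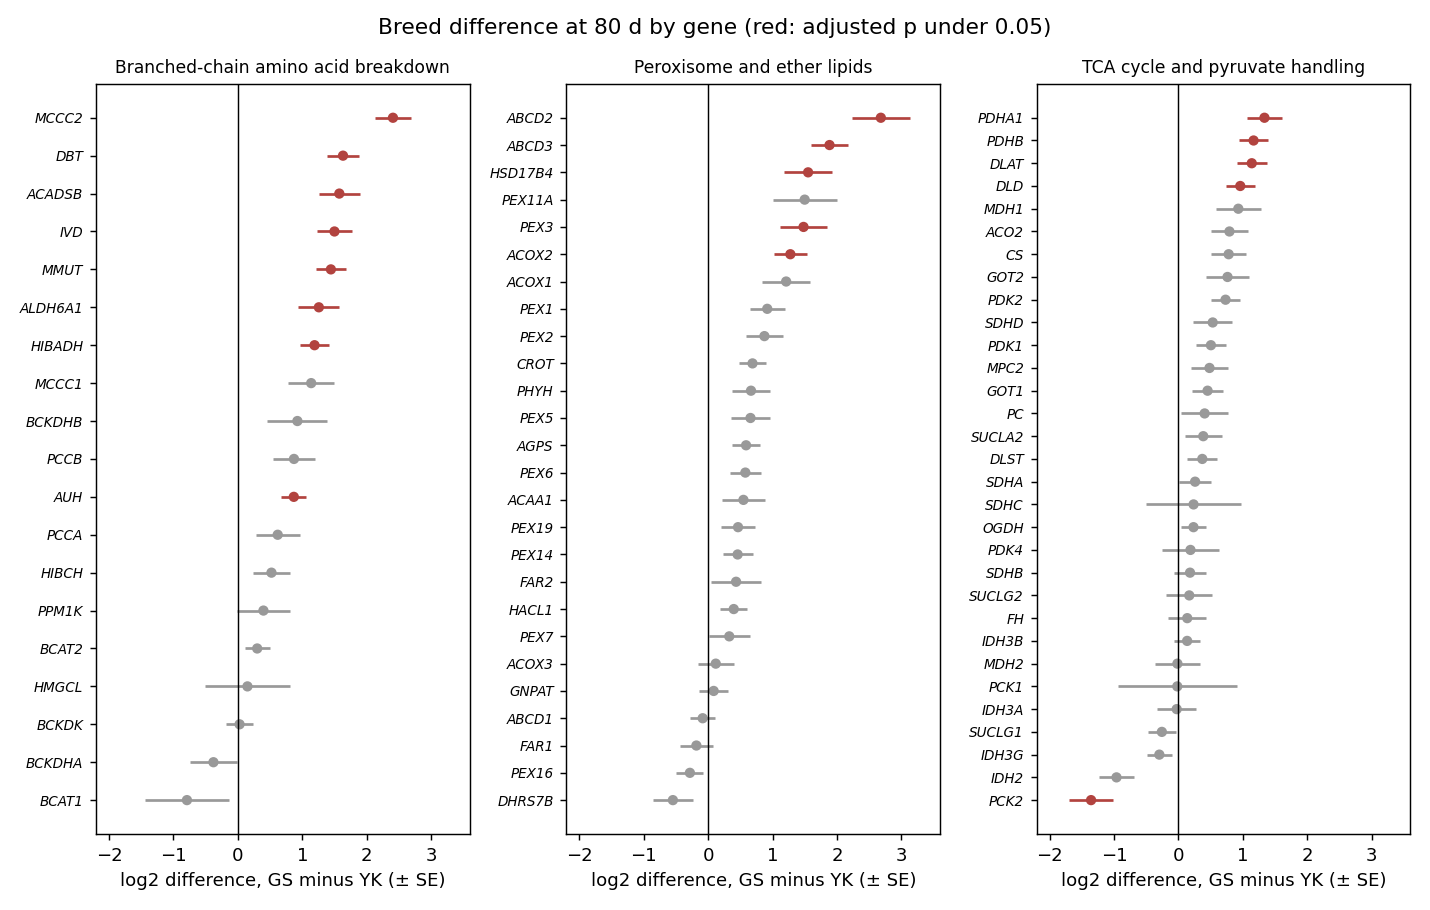
Difference at 80 d, GS minus YK, with its SE, for every tested gene of 3 metabolic lists, red where the adjusted p was under 0.05. In the left panel 17 of 19 genes lie above 0, in the middle panel 22 of 26, and in the right panel the 4 pyruvate dehydrogenase subunits lead 24 of 31.

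ALDH2, DHRS7, PCYOX1 and ECHDC1, chosen because they passed at both ages, encode enzymes. ALDH2, the mitochondrial aldehyde dehydrogenase, stood at 285, 217 and 215 CPM in GS_80d, against 50.7, 33.3 and 32.5 CPM in YK_80d (2.62 ± 0.29, adjusted p = 0.000962). DHRS7, a short-chain dehydrogenase, stood at 239, 212 and 186 CPM in GS_80d, against 40.4, 33.1 and 35.1 CPM in YK_80d (2.55 ± 0.24, adjusted p = 0.000599). PCYOX1, which breaks down prenylated cysteine, stood at 902, 736 and 858 CPM in GS_80d, against 75.8, 127 and 127 CPM in YK_80d (2.92 ± 0.33, adjusted p = 0.00099). These 3 genes showed a gap of several fold and little spread inside either breed. ECHDC1, which removes ethylmalonyl-CoA, a side product of fatty acid synthesis, was higher by 2.36 ± 0.29 (adjusted p = 0.00165). At 9 d the differences were 1.66 for ALDH2, 1.74 for DHRS7, 1.95 for PCYOX1 and 1.77 for ECHDC1, and all passed (adjusted p = 0.0269, 0.00938, 0.0264 and 0.0245). ACO1, the cytosolic aconitase that also regulates iron handling, was higher at 80 d by 1.76 ± 0.29 (adjusted p = 0.00641). It passed at 9 d too, at 1.53 (adjusted p = 0.0347).

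Genes of sugar metabolism differed in single isoforms. LDHB, the lactate dehydrogenase subunit of oxidative tissues, stood at 247, 238 and 235 CPM in GS_80d, against 39.1, 28.1 and 22.2 CPM in YK_80d (3.01 ± 0.43, adjusted p = 0.00325). ALDOC, an aldolase isoform, stood at 1064, 887 and 1171 CPM in GS_80d, against 116, 81.3 and 48.9 CPM in YK_80d (3.66 ± 0.58, adjusted p = 0.00597). PFKP, the platelet isoform of phosphofructokinase, went the other way, at 32.4, 24.7 and 38.2 CPM in GS_80d, against 81.4, 64.2 and 85.4 CPM in YK_80d (-1.28 ± 0.23, adjusted p = 0.00867). None of these 3 genes overlapped between breeds. Of 23 glycolysis genes tested 4 were higher and 1 lower, and the median was -0.30, or 0.31 without YK_80d replicate 3, the library with the muscle transcripts. Of the 4 higher calls, 2 remained without GS_80d replicate 3 or YK_80d replicate 2. GBE1, the glycogen branching enzyme, was higher by 2.02 ± 0.33 (adjusted p = 0.00677).

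Retinoid and storage lipid genes held a few of the larger differences. ALDH1A1, which oxidises retinal to retinoic acid, stood at 219, 156 and 189 CPM in GS_80d, against 21.7, 21.0 and 18.6 CPM in YK_80d (3.20 ± 0.43, adjusted p = 0.00265). RBP7, a retinoid-binding protein, was lower by -1.93 ± 0.36 (adjusted p = 0.0106), but not without GS_80d replicate 1 or 2 (adjusted p up to 0.0583), and the retinoid list as a whole had 2 higher and 1 lower of 19 genes with a median of -0.01. The other higher call, that of RETSAT, a retinol saturase, was lost in all 6 fits that left out a library (adjusted p up to 0.114). Fatty acid synthesis, given for context, had 13 higher and 1 lower of 21 genes, and 3 higher without YK_80d replicates 2 and 3. G0S2, an inhibitor of the triacylglycerol lipase PNPLA2, stood at 2.30, 0.97 and 2.70 CPM in GS_80d, against 25.8, 6.14 and 14.5 CPM in YK_80d (-2.96 ± 0.53, adjusted p = 0.00871). The breeds did not overlap for G0S2, but the YK libraries spread widely. CERS6, a ceramide synthase, was higher by 1.88 ± 0.33 (adjusted p = 0.00823) and was the only call among 28 sphingolipid genes.

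Among hormone receptors and hormone-handling genes 5 of 21 tested were higher in GS and 0 lower, with a median of 0.63. TSHR, the thyrotropin receptor, stood at 27.0, 17.1 and 17.4 CPM in GS_80d, against 1.13, 2.09 and 3.02 CPM in YK_80d (3.30 ± 0.41, adjusted p = 0.0019). The breeds were several fold apart with no overlap, and TSHR passed at 9 d too, at 3.36 (adjusted p = 0.00748). A further 3 of the higher genes act in steroid synthesis or conversion. HSD17B6, a hydroxysteroid dehydrogenase, was higher by 3.94 ± 0.76 (adjusted p = 0.0134), STAR, which delivers cholesterol to mitochondria for steroid synthesis, by 3.16 ± 0.73 (adjusted p = 0.0297), and SRD5A1, a 5-alpha reductase, by 2.09 ± 0.53 (adjusted p = 0.038). Each lost its call without single libraries: HSD17B6 lost its call without GS_80d replicate 1 or YK_80d replicate 3 (adjusted p up to 0.0589), STAR without GS_80d replicate 1 or 3 or YK_80d replicate 1 or 3 (up to 0.117), and SRD5A1 without any library but GS_80d replicate 1 (up to 0.131). Of the 5 calls, 2 remained without YK_80d replicate 3, 4 without GS_80d replicate 2 or YK_80d replicate 2, and 3 without any other single library.

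Cyclic nucleotide signalling differed in both directions. PDE8B and PDE1A, phosphodiesterases that break down cyclic nucleotides, were higher in GS by 2.52 ± 0.37 and 1.51 ± 0.22 (adjusted p = 0.00362 and 0.00325). ADORA1, the adenosine receptor that lowers cyclic AMP and restrains lipolysis in adipocytes, stood at 173, 162 and 193 CPM in GS_80d, against 38.0, 19.5 and 23.5 CPM in YK_80d (2.70 ± 0.45, adjusted p = 0.00717). ADRA2C, an alpha-2 adrenoceptor that also lowers cyclic AMP, stood at 7.73, 5.27 and 7.76 CPM in GS_80d, against 19.9, 17.0 and 24.3 CPM in YK_80d (-1.56 ± 0.26, adjusted p = 0.00664). These receptors, which couple alike, lay in opposite order in the breeds. ADORA1 came from a list of 50 tested neuropeptide, amine and metabolite receptors, with 1 higher and 2 lower genes and a median of 0.08. The 2 lower calls, ADORA2A and AVPR1A, were lost in all 6 fits that left out a library. RGS16, which shortens G protein signals, was lower by -2.64 ± 0.42 (adjusted p = 0.00592). Of 35 tested genes of adrenergic and cyclic AMP signalling 4 were higher and 3 lower, with a median of -0.01. Of the 4 higher calls, 2 remained without any GS_80d library or without YK_80d replicate 3, and of the 3 lower calls, 2 remained without GS_80d replicate 1 or 2 or YK_80d replicate 2.

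Single membrane transporters of fuels and ions were higher in GS. SLC2A5, the fructose transporter, stood at 80.5, 39.0 and 38.7 CPM in GS_80d, against 3.598, 4.54 and 10.8 CPM in YK_80d (3.06 ± 0.51, adjusted p = 0.00682). SLC2A12, a glucose transporter, stood at 22.7, 20.1 and 14.5 CPM in GS_80d, against 4.05, 3.62 and 3.85 CPM in YK_80d (2.31 ± 0.30, adjusted p = 0.00224). SLC7A2, a carrier of cationic amino acids, stood at 114, 53.7 and 90.0 CPM in GS_80d, against 9.67, 21.6 and 13.9 CPM in YK_80d (2.52 ± 0.38, adjusted p = 0.00381). The breeds did not overlap for any of the 3. Their list of 56 sugar, amino acid and monoamine transporters had 3 higher and 2 lower genes and a median of 0.00. Of the 2 lower calls, 0 remained without GS_80d replicate 1 or 3 or YK_80d replicate 1, and 1 without any other single library. SLC4A4, a sodium bicarbonate cotransporter, was higher by 1.87 ± 0.21 (adjusted p = 0.000962), and SLC24A3, a sodium, calcium and potassium exchanger, by 2.80 ± 0.49 (adjusted p = 0.00833). SLCO1A2, an organic anion transporter, stood at 28.0, 18.9 and 31.6 CPM in GS_80d, against 0.85, 0.79 and 0 CPM in YK_80d (5.57 ± 0.90, adjusted p = 0.00682).

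Growth factor and receptor genes differed in single members. KIT, the receptor of stem cell factor on mast cells and pigment cells, stood at 7.69, 10.04 and 5.42 CPM in GS_80d, against 43.6, 102 and 57.3 CPM in YK_80d (-3.13 ± 0.34, adjusted p = 0.000962). All YK libraries were several fold above all GS libraries. KIT was the only call among the 9 tested mast cell genes, whose median was 0.13, and among the 7 tested pigment cell genes, whose median was also 0.13. FGF2, a growth factor of vessels and progenitors, was higher in GS by 1.73 ± 0.30 (adjusted p = 0.00746). SFRP1, a secreted Wnt antagonist, stood at 579, 555 and 633 CPM in GS_80d, against 138, 55.7 and 95.04 CPM in YK_80d (2.61 ± 0.37, adjusted p = 0.00305). NOTCH2, a Notch receptor, was higher by 1.19 ± 0.21 (adjusted p = 0.00839). GRB10, an adaptor that restrains insulin and IGF1 receptors, stood at 72.3, 60.2 and 48.1 CPM in GS_80d, against 186, 139 and 150.4 CPM in YK_80d (-1.40 ± 0.20, adjusted p = 0.00305). GHR, the growth hormone receptor, was higher by 1.68 ± 0.34 (adjusted p = 0.0151) and lost its call without GS_80d replicate 1 (adjusted p = 0.0606). Of 53 growth factors and receptors 4 were higher and 3 lower (median 0.07), of 44 Wnt pathway genes 3 were higher (median 0.16), and of 29 Notch and Hedgehog genes 2 were higher (median 0.14). Of the higher growth factor calls, 2 remained without GS_80d replicate 2 or YK_80d replicate 2 and 1 without any other single library, and of the lower ones, 1 remained without any GS_80d library or without YK_80d replicate 3. Of the Wnt calls, 1 remained without YK_80d replicate 3, and of the Notch and Hedgehog calls, 1 remained whichever library was left out.

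Matrix genes differed in single members of several classes. Of 59 proteoglycan and elastic fibre genes 5 were higher and 1 lower, with a median of 0.41. PRELP, a leucine-rich proteoglycan that anchors basement membranes to collagen, stood at 287, 276 and 338 CPM in GS_80d, against 131, 137 and 93.1 CPM in YK_80d (1.32 ± 0.21, adjusted p = 0.00604). GPC6, a glypican of the cell surface, was higher by 2.02 ± 0.29 (adjusted p = 0.00309), and ECM2, a matrix protein of fat, by 1.33 ± 0.24 (adjusted p = 0.00868). ADAMTS18 and ADAMTS20, secreted metalloproteases, were higher by 3.22 ± 0.45 and 2.05 ± 0.28 (adjusted p = 0.00305 and 0.00265), whereas TIMP1, an inhibitor of matrix metalloproteases, stood at 16.7, 17.0 and 21.0 CPM in GS_80d, against 35.9, 42.5 and 37.6 CPM in YK_80d (-1.08 ± 0.18, adjusted p = 0.00741). None of these 3 genes overlapped, and their list of 49 matrix proteases and inhibitors had 3 higher and 1 lower with a median of 0.07. ITGA7, a laminin receptor subunit, was higher by 1.71 ± 0.27 (adjusted p = 0.00564). Collagens gave 1 higher and 2 lower of 35, with a median of 0.44: COL12A1, a fibril-associated chain, was higher by 2.13 ± 0.44 (adjusted p = 0.0189), and the basement membrane chains COL18A1 and COL4A6 were lower by -1.50 ± 0.27 and -1.76 ± 0.34 (adjusted p = 0.00867 and 0.0137). COL12A1 did not pass without GS_80d replicate 2 or 3 or YK_80d replicate 1 or 3 (adjusted p up to 0.0742), COL18A1 without GS_80d replicate 1 (0.0532) and COL4A6 without GS_80d replicate 3 (0.0557). Without YK_80d replicate 2 the collagen list had 8 higher genes, COL12A1 among them. Of the 5 higher proteoglycan calls, 5 remained without YK_80d replicate 2 and 3 without any other single library.

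Vessel and contractile genes passed as lower in single members. GJA4, a connexin of arterial endothelium, stood at 46.7, 40.0 and 48.2 CPM in GS_80d, against 136, 109.7 and 139 CPM in YK_80d (-1.51 ± 0.24, adjusted p = 0.00564). MYL9, a myosin light chain of smooth muscle, stood at 54.9, 53.7 and 86.3 CPM in GS_80d, against 202, 169 and 169 CPM in YK_80d (-1.47 ± 0.22, adjusted p = 0.00381). For both genes every YK library was above every GS library. Cell type markers, which do not include GJA4 or MYL9, hardly passed: those of endothelium had 0 higher and 1 lower of 20 (median -0.31), and those of smooth muscle and pericytes 0 higher and 2 lower of 21 (median -0.34). Most of their differences were negative all the same, 19 of the 20 and 16 of the 21. Among all 15425 genes tested, 7500 differences were positive. The endothelial call was left only without YK_80d replicate 2 or 3. Of the smooth muscle calls 0 were left without GS_80d replicate 1 or 3 or YK_80d replicate 1, and 1 without GS_80d replicate 2 or YK_80d replicate 3. MAPT, the microtubule protein tau, was higher by 3.20 ± 0.42 (adjusted p = 0.00224).

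**Figure D4:**
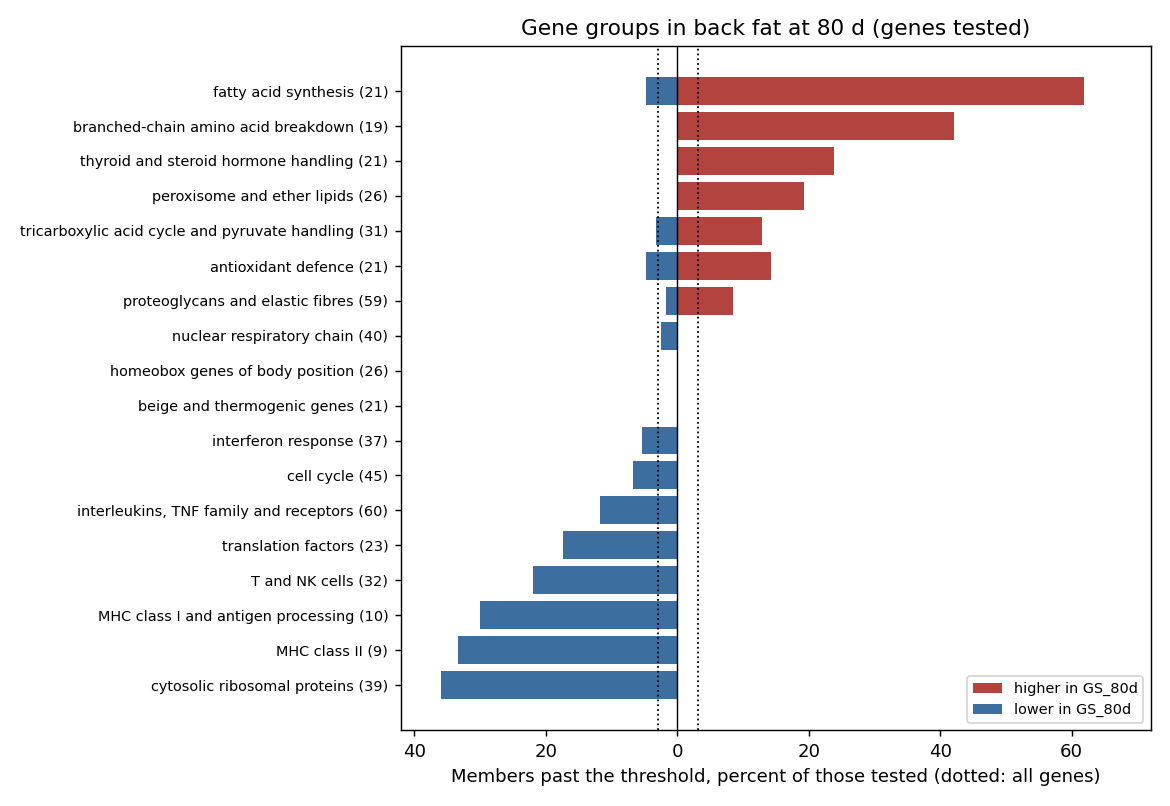
Percent of the tested genes of 18 lists that passed an adjusted p of 0.05 at 80 d, to the right where higher in GS_80d and to the left where lower, with the number tested in brackets and dotted lines at the 3.17% and 2.95% of all genes. Branched-chain amino acid breakdown had 8 higher of 19, cytosolic ribosomal proteins had 14 lower of 39, and the homeobox and thermogenic lists had 0 calls.

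Interleukin, lymphocyte and antigen presentation genes that passed were lower in GS. Of 60 tested interleukins, TNF family members and their receptors 7 were lower and 0 higher, with a median of -0.55. IL33, an alarmin stored in stromal and endothelial nuclei, stood at 25.02, 25.2 and 22.6 CPM in GS_80d, against 54.6, 96.7 and 90.5 CPM in YK_80d (-1.73 ± 0.22, adjusted p = 0.00206). IL2RG, the receptor chain shared by lymphocyte growth interleukins, stood at 6.39, 5.43 and 7.71 CPM in GS_80d, against 15.1, 34.1 and 45.03 CPM in YK_80d (-2.27 ± 0.39, adjusted p = 0.00795). Neither gene overlapped, and for both the lowest YK library was replicate 1, which also had the lowest T cell sum of the 3 YK libraries. TYROBP, a signalling adaptor of macrophages and NK cells, was lower by -1.87 ± 0.32 (adjusted p = 0.00718). Of the 7 interleukin calls, 2 remained without GS_80d replicate 1, 3 without GS_80d replicate 2 or 3, 5 without either YK_80d replicate 2 or 3, and 4 when YK_80d replicate 1 was left out. The lower T and NK cell calls, 7 of 32 with a median of -1.97, were mostly lost without a single library of either breed, YK_80d replicate 1 excepted. Of the 7 calls, 1 remained without YK_80d replicate 3 or any GS_80d library, 3 without YK_80d replicate 2 and 7 without YK_80d replicate 1, where the list had 11 lower genes. Without YK_80d replicates 2 and 3 there were 0 calls and the median was 0.33, but those libraries had been chosen for their T cell transcripts and 1 YK_80d library is left, so this loss was fixed by the choice. The part of these transcripts in the other immune results was not tested.

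Antigen-processing genes were lower too. PSMB8, a subunit of the immunoproteasome, the form that cuts peptides for MHC class I, stood at 36.8, 49.6 and 38.1 CPM in GS_80d, against 122, 118 and 193 CPM in YK_80d (-1.80 ± 0.35, adjusted p = 0.0127). PSMB9 and PSMB10, its partner subunits, were lower by -1.91 ± 0.43 and -1.30 ± 0.30 (adjusted p = 0.0258 and 0.0275). CD74, the chaperone of MHC class II, stood at 821, 902 and 942 CPM in GS_80d, against 1566, 1918 and 2616 CPM in YK_80d (-1.19 ± 0.25, adjusted p = 0.0182). None of the 4 overlapped, and replicate 3 was the highest YK library for PSMB8 and CD74. Of 10 MHC class I and processing genes 3 were lower (median -0.96), and of 9 MHC class II genes 3 (median -0.92), against 0 of 27 genes of the constitutive proteasome, whose median was -0.19. PSMB8 lost its call without GS_80d replicate 1 or 3, and the other 3 genes without any GS_80d library or without YK_80d replicate 3 (adjusted p up to 0.067 for PSMB8, 0.112 for PSMB9, 0.119 for PSMB10 and 0.0899 for CD74). Of the class I calls, 0 remained without GS_80d replicate 1 or 3 and 1 without GS_80d replicate 2 or YK_80d replicate 3. Of the class II calls, 0 remained without GS_80d replicate 1 or 2 or YK_80d replicate 3, 1 without GS_80d replicate 3 and 2 without YK_80d replicate 2.

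Other immune and clotting genes went both ways. CCL4, a chemokine for lymphocytes and monocytes, was higher in GS, at 8.80, 23.5 and 7.81 CPM in GS_80d, against 0.34, 0.52 and 0.56 CPM in YK_80d (4.81 ± 0.71, adjusted p = 0.00373), though chemokines of this family have near-identical copies and its reads may not have been told apart from theirs. F5, coagulation factor V, stood at 147, 115 and 96.2 CPM in GS_80d, against 13.6, 22.4 and 13.1 CPM in YK_80d (2.87 ± 0.47, adjusted p = 0.00682). Neither of these genes overlapped between the breeds. CCL2, the main attractant of monocytes, stood at 17.2, 31.4 and 23.4 CPM in GS_80d, against 132, 139 and 144 CPM in YK_80d, and was lower (-2.53 ± 0.53, adjusted p = 0.0194). The YK libraries were close to each other for CCL2, unlike for the T cell genes, but the call was lost without any GS_80d library or without YK_80d replicate 3 (adjusted p up to 0.0985). PTGER3, a prostaglandin E2 receptor that lowers cyclic AMP, was lower by -1.58 ± 0.30 (adjusted p = 0.0109), and lost its call without GS_80d replicate 1 (0.0577).

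Part of the genes for cytosolic ribosomal proteins were lower in GS. Of 39 tested 14 were lower and 0 higher, all 39 had a negative difference, and the median was -1.08, against 0.00 at 9 d. Their summed level was 27981, 27171 and 26520 CPM in GS_80d, against 50075, 40903 and 69657 CPM in YK_80d. The GS libraries were nearly equal and below all YK libraries, and YK_80d replicate 3, which carries the muscle transcripts, was the highest. RPL35 stood at 542, 531 and 521 CPM in GS_80d, against 1320.4, 998 and 1631 CPM in YK_80d (-1.31 ± 0.30, adjusted p = 0.0276), and lost its call without any GS_80d library or without YK_80d replicate 3 (adjusted p up to 0.0969). Of 23 translation factors 4 were lower and 0 higher (median -0.46), among them EIF3D, a subunit of an initiation factor, by -1.10 ± 0.22 (adjusted p = 0.0136), a call lost without GS_80d replicate 1 or 2 (adjusted p up to 0.0599). Of the ribosomal calls, 0 remained without YK_80d replicate 3 or any GS_80d library, 3 without YK_80d replicate 1 and 14 without YK_80d replicate 2, where the list had 19 lower genes, and the median was -0.81 without YK_80d replicate 3. Of the translation factor calls, 0 remained without GS_80d replicate 1 or 2, 1 without GS_80d replicate 3 or YK_80d replicate 3 and 2 without YK_80d replicate 1. Ribosomal protein genes have many processed copies in mammalian genomes, and how reads of such copies were counted was not stated in the labels.

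Stress and transcription genes also differed in single members. The inducible chaperones, given for context, had 0 higher and 5 lower of 20 genes, and 3 lower without GS_80d replicate 1. NUPR1, a chromatin protein induced by cell stress, stood at 257, 115 and 170 CPM in GS_80d, against 1233, 518 and 1528 CPM in YK_80d (-2.60 ± 0.43, adjusted p = 0.00682), and was the only call among 19 genes of the amino acid stress response. RASD1, a small GTPase induced by glucocorticoids, stood at 6.15, 4.58 and 2.43 CPM in GS_80d, against 37.5, 37.7 and 41.7 CPM in YK_80d (-3.15 ± 0.37, adjusted p = 0.0011). For RASD1 the YK libraries were nearly equal, while for NUPR1 replicate 2 lay well below the other two. The 17 glucocorticoid targets had 0 higher and 2 lower genes with a median of 0.19. The other call, that of ANGPTL4, an inhibitor of lipoprotein lipase, was lost without any single library but GS_80d replicate 3 (adjusted p up to 0.166). NFE2L3, a leucine zipper transcription factor, was lower by -2.86 ± 0.38 (adjusted p = 0.00224), IER5, an immediate early gene, by -1.25 ± 0.22 (adjusted p = 0.00868), and FGD3, an activator of the GTPase CDC42, by -3.14 ± 0.50 (adjusted p = 0.00579). KAT2B, a histone acetyltransferase, was higher by 1.17 ± 0.21 (adjusted p = 0.0102), as was KLF6, a zinc finger factor that promotes adipocyte differentiation, by 1.13 ± 0.21 (adjusted p = 0.0107). Of 35 tested adipogenic transcription factors 3 were higher and 2 lower, with a median of -0.16. Of these calls only that of KLF6 held in all 6 fits that left out a library.

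Several groups gave few calls or none, which does not show that the breeds were alike in them. Among 26 homeobox genes of body position, 21 beige and thermogenic genes and 17 adipokines, 0 passed, with medians of -0.10, -0.18 and 0.33. The largest of the adipokine differences was that of LEP, leptin, at 56.3, 155 and 69.8 CPM in GS_80d, against 25.8, 2.78 and 5.44 CPM in YK_80d (3.05 ± 0.91, adjusted p = 0.0778), with no overlap but a wide spread in both breeds. LEP was picked after these values were seen. Cell cycle genes had 0 higher and 3 lower of 45 and a median of -1.46. The median was 0.33 without YK_80d replicates 2 and 3, a fit with 1 YK_80d library left. Of the calls, 2 remained without YK_80d replicate 1, where the list had 17 lower genes, 1 without GS_80d replicate 2 or YK_80d replicate 2, and 0 without any other single library. Interferon response genes had 0 higher and 2 lower of 37 and a median of -1.09, with 36 of the 37 differences negative. At 9 d the median of the same list was 1.94, with 1 higher and 0 lower. The calls at 80 d were BST2, lost in all 6 fits that left out a library, and GBP2, lost in all but the fit without YK_80d replicate 1 (adjusted p up to 0.172 and 0.13). All 26 skeletal muscle genes had negative differences but 0 passed, and their median, -9.0, was 0.00 without YK_80d replicate 3. That library had been singled out by these same genes, so this change was fixed by the choice.

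A few genes were at 0 in all libraries of one breed. Of the 944 genes, 17 were at 0 in all 3 GS_80d libraries and 7 in all 3 YK_80d libraries. Of all 15425 genes tested, 199 and 104 were, so such zeros were little more common among the called genes. The macrophage scavenger receptor MARCO was at 0, 0 and 0 CPM in GS_80d, against 2.49, 7.70 and 8.86 CPM in YK_80d, at least 103-fold lower against a floor of 3 fragments for the summed GS_80d libraries, a bound for counting error alone (adjusted p = 0.000962). HEPH, a copper oxidase that helps iron leave cells, was also at 0 in GS_80d, against 2.21, 2.98 and 2.26 CPM in YK_80d, at least 40.2-fold lower (adjusted p = 0.0222), but lost its call without any GS_80d library or without YK_80d replicate 3 (adjusted p up to 0.0741). The macrophage list summed to 608 to 868 CPM in GS_80d, against 516, 953 and 995 CPM in YK_80d, with 3 lower of 25 and a median of -0.12. CLDN4, a claudin of simple epithelium, stood at 0.91, 2.20 and 1.34 CPM in GS_80d, against 527, 43.0 and 257 CPM in YK_80d (-7.53 ± 1.14, adjusted p = 0.00686). The other 24 epithelial genes summed to 164, 129 and 76.3 CPM in the same YK libraries, and the part of epithelial tissue in the result was not tested. CLDN4 was 1 of 2 calls among 25 epithelial genes. The other, SPINT1, a protease inhibitor of epithelia, was at 0 in GS_80d, against 0.30, 0.91 and 0.21 CPM in YK_80d (at least 8.03-fold lower, adjusted p = 0.0381), and passed in 0 of the 6 fits that left out a library (adjusted p up to 0.116).

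Most differences at 80 d had the same sign at 9 d. This held for 784 of the 944 genes (83.1%), against 62.4% of all genes tested. Of the 944 genes 85 also passed at 9 d, which is 9.00% of the calls at 80 d and 54.1% of the 157 calls at 9 d. Those 157 genes were 1.02% of the genes tested, with 0.655% higher and 0.363% lower in GS_9d. Of the 85, 65 were higher and 19 lower in GS at both ages, and EPSTI1, an interferon-induced gene outside the interferon list, had opposite signs, as the medians of that list did, with its call at 80 d lost without any single library but YK_80d replicate 2 (adjusted p up to 0.108). The breed by age interaction, which tests whether the breed difference at 80 d differs from that at 9 d, passed for 10 genes (0.0648%), 9 of them called at 80 d, and for 1693 at an unadjusted p under 0.05. The 10 became 5, 6 and 6 without GS_80d replicates 1, 2 and 3, and 90, 8 and 5 without YK_80d replicates 1, 2 and 3. CLMP, an adhesion molecule of adipocytes, stood at 242, 248 and 375 CPM in GS_80d, against 57.6, 53.6 and 53.04 CPM in YK_80d (2.40 ± 0.24, adjusted p = 0.000599). At 9 d it stood at 106, 105 and 72.6 CPM in GS_9d, against 102, 101 and 131 CPM in YK_9d, where it did not pass (-0.24 ± 0.22, adjusted p = 0.711). The breeds overlapped at 9 d and were far apart at 80 d, and the interaction was 2.64 ± 0.32 (adjusted p = 0.00956, and at most 0.037 without any single library of 80 d). KIT and TSHR differed by -3.13 and 3.30 at 80 d and by -3.0 and 3.36 at 9 d, with interactions of -0.14 ± 0.44 and -0.06 ± 0.53 (adjusted p = 0.952 and 0.989).

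**Figure D5:**
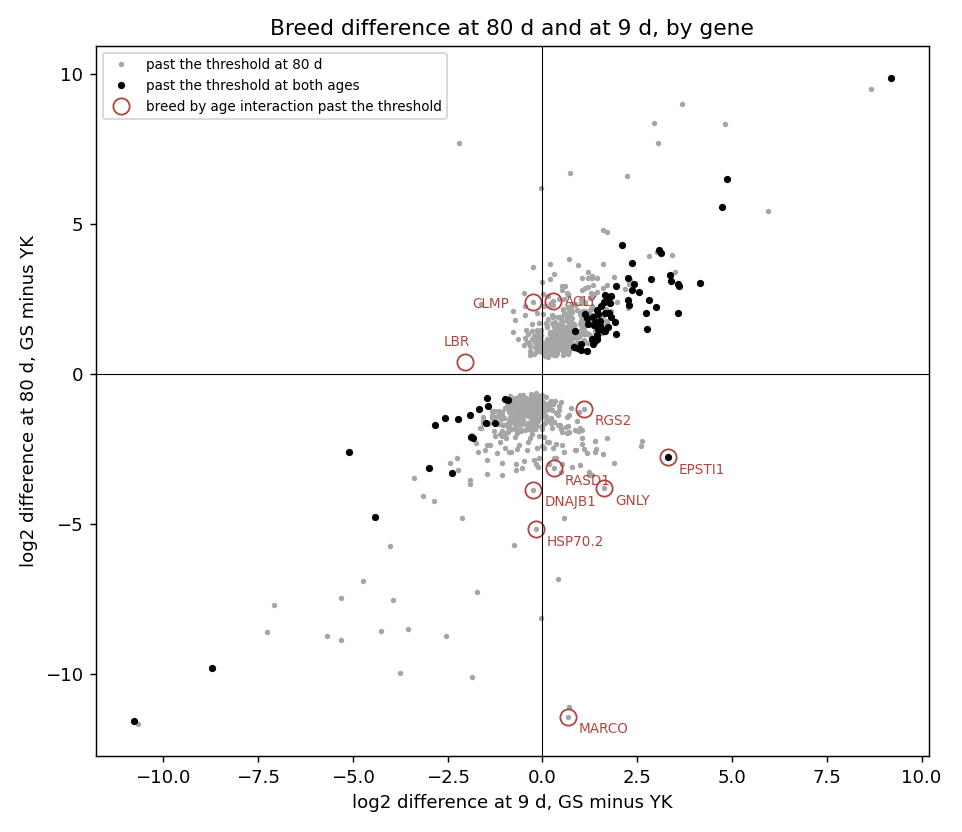
Difference between GS and YK at 80 d against that at 9 d, both on the log2 scale, for the 944 genes that passed at 80 d (black where they also passed at 9 d) and the 10 genes whose breed by age interaction passed (circles, named). The most extreme values belong to genes at or near 0 in 1 group, whose fitted size depends on the prior count; EPSTI1 passed at both ages with opposite signs.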

How the data were processed

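Per the labels' protocols, TRIzol RNA of pig back fat went into stranded KAPA libraries. Expected counts per gene for all 12 libraries, without normalization, were deposited by the authors as 1 table. For aligner, counting tool and use of strand, nothing is given in the sources used here. A mouse build, mm10, stands in the submitters' processing notes, whereas the gene IDs of the table are those of pig. The deposited values fall in steps of about 3.72 units for 1 fragment, so library totals are larger than the number of fragments sequenced. Bounds set against a floor of 3 fragments cover counting error alone, whereas the SE also includes the spread among libraries.

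Values were rounded to whole numbers. Of 24358 genes, 15425 passed edgeR's filterByExpr (minimum count 10). Quasi-likelihood models (edgeR 4.0.16 in R 4.3.3, TMM factors, robust estimation, limma 3.58.1, statmod 1.5.0) were fitted to the 4 groups of 3 libraries, with Benjamini-Hochberg adjustment over all tested genes and a threshold of 0.05. The SE is the size of the log2 difference divided by the root of F. Interaction is the 80 d minus the 9 d difference. The code was tested on simulated data with differences planted in well-counted genes, each gene with the same spread in every group. At 80 d it called 12.2% of 2-fold and 70% of 4-fold differences, and as interactions 2.04% and 23% of them. Few or no calls thus do not show that a difference is absent, least of all for the interaction.

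Genes were named by rule: the 15 largest changes per direction with non-overlapping groups and a mean log2 CPM of 2 or more, up to 5 called members per list by adjusted p, genes at 0 in 1 breed, interaction genes, and genes called at both ages. LEP, BCAT2 and BCKDK were named outside this rule, after their values were seen. Members and the 92 lists were chosen with earlier results of these data known. Alternatives were other scalings and filters, DESeq2 1.42.0, limma-voom, the 6 libraries alone, a replicate block, and leaving libraries out. Results on some genes are not reported here.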

Additional observations from a re-analysis of the deposited data

Results flagged for a closer look

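The breed by age interaction, the 80 d minus the 9 d breed difference, passed in edgeR's quasi-likelihood test with Benjamini-Hochberg adjustment for 10 genes, each of which is given here because its breed difference was not the same at the 2 ages. The chaperones HSP70.2, which has near-identical copies and so is uncertain, and DNAJB1 had interactions of -5.01 ± 0.47 (SE) and -3.62 ± 0.36 (adjusted p = 0.00188 and 0.00217), and both held in every fit without 1 library of 80 d and in the fit with a replicate block. The adhesion gene CLMP had an interaction of 2.64 ± 0.32 (adjusted p = 0.00956). The macrophage receptor MARCO had a fitted interaction of -12.1, whose size depends on the prior count because GS_80d was at 0 (adjusted p = 0.00956), and the call was lost in limma-voom. Neither CLMP nor MARCO passed with a replicate block.

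The other 6 lost the call in some of the fits without 1 library of 80 d: LBR, RASD1 and ACLY in 4 of the 6 fits, and GNLY, EPSTI1 and RGS2 in all but the fit without YK_80d replicate 1. LBR, a receptor of the inner nuclear membrane, had an interaction of 2.42 ± 0.33 (adjusted p = 0.0202), from a difference of 0.39 at 80 d, which did not pass, and -2.03 at 9 d. RASD1 had -3.46 ± 0.50 (0.0329), and ACLY, which makes cytosolic acetyl-CoA, had 2.17 ± 0.32 (0.041). GNLY, a granule protein of T and NK cells, had -5.45 ± 0.81 (0.0455), and the T cell transcripts of YK_80d replicates 2 and 3 stand beside it, their part not tested. EPSTI1, an interferon-induced gene, had -6.09 ± 0.91 (0.0455), and RGS2, which shortens G protein signals, had -2.26 ± 0.36 (0.0493).

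EPSTI1 stood at 4.21, 3.34 and 4.08 CPM in GS_80d, against 34.9, 16.2 and 29.1 CPM in YK_80d. At 9 d it stood at 61.02, 28.9 and 6.04 CPM in GS_9d, against 2.13, 3.57 and 4.03 CPM in YK_9d. Neither age showed overlap between the breeds, and the order of the breeds was opposite.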

How the results depend on the processing

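The 944 calls at 80 d stood at 852 to 1078 under the other scalings and filters, limma-voom (961), the values divided by the fragment step and no robust estimation (901), and at 849 in the 6 libraries of 80 d alone. They were 2202 with DESeq2, which kept all 944, 242 without YK_80d replicates 2 and 3, which leaves 1 YK_80d library assumed to vary like the other groups, and 290 without the libraries with muscle transcripts, which an earlier report on these data had singled out, and 255 to 916 when 1 library was left out. Library totals alone gave 569 higher and 433 lower calls, and limma-voom 564 and 397, against 489 and 455. The 157 calls at 9 d became 900 with DESeq2. The 10 interaction calls became 367 with DESeq2, 6 with limma-voom and 5 to 90 when 1 library was left out, and library totals split them as 6 higher and 4 lower, against 3 and 7. The cause of these shifts was not tested.

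The labels do not say what a replicate number shares. As deviations from their group means, same-numbered GS_80d and YK_80d libraries correlated at 0.0333, -0.0311 and 0.0282. Libraries with different numbers correlated at -0.0828 to 0.0618. With 3 libraries a group, these values cannot show whether the samples were paired. With a replicate block there were 808 calls at 80 d (730 shared), 49 at 9 d and 2 interactions, HSP70.2 and DNAJB1.

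None of the 254 genes picked by the naming rule changed sign at 80 d under any alternative run. Of the 253 of them called at 80 d, DESeq2 kept every call, the replicate block lost 36, and 81 kept theirs in every fit without 1 library. Levels near 0 CPM rest on few fragments.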

Other observations

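Other gene groups differed in single members at 80 d in edgeR's quasi-likelihood test with Benjamini-Hochberg adjustment. In serine synthesis, PSPH, the last enzyme of the route, stood at 22.7, 35.5 and 16.4 CPM in GS_80d, against 2.90, 5.26 and 5.98 CPM in YK_80d (difference 2.40 ± 0.47, SE, adjusted p = 0.0144). PSAT1, the transaminase before it, stood at 194, 182 and 182 CPM in GS_80d, against 29.0, 41.3 and 39.3 CPM in YK_80d (2.35 ± 0.51, adjusted p = 0.0245). Neither gene overlapped between the breeds. PSPH lost its call without GS_80d replicate 2 (adjusted p = 0.0544) and PSAT1 without any single library but YK_80d replicate 2 (up to 0.0788). They were the only higher calls among 20 genes of serine, glycine and one-carbon metabolism, while 1 was lower and the median was 0.20.

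Of 21 antioxidant genes 3 were higher, PRDX3, PRDX6 and GCLM, and 1 was lower, SOD2, with a median of 0.55. PRDX3, a peroxiredoxin, stood at 528, 573 and 648 CPM in GS_80d, against 149, 191 and 196 CPM in YK_80d (1.70 ± 0.36, adjusted p = 0.0199). SOD2, the mitochondrial superoxide dismutase, stood at 207, 187 and 235 CPM in GS_80d, against 486, 453 and 701 CPM in YK_80d (-1.38 ± 0.33, adjusted p = 0.0303). The groups did not overlap for either gene, but PRDX3 lost its call without any single library but YK_80d replicate 2 (up to 0.0617), and SOD2 without any GS_80d library or without YK_80d replicate 3 (up to 0.113). PRDX6 and GCLM were higher by 1.18 ± 0.28 and 1.08 ± 0.25 (adjusted p = 0.0305 and 0.0281), PRDX6 losing its call in all 6 fits (up to 0.0959) and GCLM in all but the fit without YK_80d replicate 1 (up to 0.0953).

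Of 55 semaphorins, slits, ephrins, netrins and their receptors 5 were higher and 3 lower, with a median of 0.21. The guidance genes SEMA3C, a semaphorin, and ROBO1, a Slit receptor, were higher by 1.71 ± 0.35 and 1.91 ± 0.38 (adjusted p = 0.0158 and 0.0151). SEMA3C lost its call without GS_80d replicate 3 or YK_80d replicate 3 (up to 0.0598), and ROBO1 without GS_80d replicate 2 or YK_80d replicate 3 (up to 0.0599). SEMA4D, another semaphorin, was lower by -1.72 ± 0.33 (adjusted p = 0.0132) and lost its call without GS_80d replicate 1 or 3 or YK_80d replicate 3 (up to 0.0642).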
